A study of Mus musculus with 35 samples.

Results

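The CCR4-NOT deadenylase and its adaptor BTG4 were followed through the first cell cycles of the mouse embryo as transcripts of 9 genes, namely Btg4, Cnot1, Cnot2, Cnot3, Cnot6, Cnot6l, Cnot7, Cnot8 and Zfp36l2. They were taken by name from a table of 24480 RefSeq genes, and all 9 were found and passed the filter on low counts in every comparison. The libraries were of wild-type C57BL/6NRj embryos, fertilised in vivo in superovulated females of 3 to 4 weeks, with zygotes pooled over females so that no embryo can be traced to its mother. Control zygotes (n = 10) and control 2C samples (n = 9) had been injected with nuclease-free water, whereas Kdm5b zygotes (n = 10) and Kdm5b 2C samples (n = 6) had received in vitro transcribed Kdm5b-yfp mRNA, which encodes an H3K4 demethylase tagged with YFP. Zygotes were collected 17 h after ovulation, and 2C embryos 5.5 to 8 h after division. Each library held 1 zygote or 1 intact 2C embryo, apart from 3 control and 1 Kdm5b 2C libraries, which were pools of 2 or 3 blastomeres from as many embryos. The 2C embryos came from zygotes that had been frozen and thawed, and library preparation was done on separate days for the stages. Stage therefore cannot be told apart from freezing or library day, and water as the only control cannot separate KDM5B from injected mRNA as such.

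Transcripts stored by the growing oocyte are cleared as meiosis resumes and the embryonic genome is activated, and shortening of the poly(A) tail by CCR4-NOT starts much of that clearance. CNOT1 is the scaffold of the complex, CNOT2 and CNOT3 form a module on its end, and the tail is removed by a nuclease of the Caf1 type (CNOT7 or CNOT8) and a nuclease of the Ccr4 type (CNOT6 or CNOT6L). BTG4 is an oocyte adaptor that binds the Caf1 nucleases and brings them to maternal mRNAs, and ZFP36L2 binds AU-rich elements in target mRNAs and recruits the complex to them. The counts measure the transcripts of these genes, not their proteins, the activity of the complex or the length of any tail.

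The stretches of 250 bases before the start of Btg4, Cnot3, Cnot6 and Cnot6l are shown because the transcripts of these genes differed between the stages and the RefSeq start of each (assembly GRCm38.p6) adjoins the counted gene model. Cnot7, whose transcripts also differed, had no entry among the promoters used, nor had Cnot1 or Zfp36l2. Capitals mark matches on either strand to CCAAT and GGGCGG, the core letters of an NF-Y site and of a GC box. A match on the opposite strand reads ATTGG or CCGCCC.
Btg4, chr9:51115751-51116000, plus strand: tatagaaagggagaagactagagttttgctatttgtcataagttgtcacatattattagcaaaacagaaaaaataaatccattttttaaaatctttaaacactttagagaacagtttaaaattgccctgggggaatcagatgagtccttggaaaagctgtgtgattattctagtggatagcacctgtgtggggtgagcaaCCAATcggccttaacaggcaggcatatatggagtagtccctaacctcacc
Cnot3, chr7:3645019-3645268, plus strand: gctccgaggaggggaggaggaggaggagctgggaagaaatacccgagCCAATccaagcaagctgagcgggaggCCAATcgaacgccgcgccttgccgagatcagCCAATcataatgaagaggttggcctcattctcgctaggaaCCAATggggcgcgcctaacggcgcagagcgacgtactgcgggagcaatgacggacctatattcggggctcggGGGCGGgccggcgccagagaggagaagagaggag
Cnot6, chr11:49712723-49712972, minus strand: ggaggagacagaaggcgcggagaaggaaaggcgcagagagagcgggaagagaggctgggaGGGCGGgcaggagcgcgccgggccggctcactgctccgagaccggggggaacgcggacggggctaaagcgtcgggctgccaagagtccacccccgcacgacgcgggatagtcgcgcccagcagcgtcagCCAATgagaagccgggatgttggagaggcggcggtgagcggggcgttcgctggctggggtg
Cnot6l, chr5:96161991-96162240, minus strand: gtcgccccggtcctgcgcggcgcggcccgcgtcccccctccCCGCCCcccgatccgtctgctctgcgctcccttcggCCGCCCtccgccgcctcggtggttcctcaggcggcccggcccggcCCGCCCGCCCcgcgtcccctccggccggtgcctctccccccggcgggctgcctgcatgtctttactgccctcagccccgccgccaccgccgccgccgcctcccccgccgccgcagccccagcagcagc
The Btg4 stretch was the most AT-rich of the 4, with a GC content of 38%, and held 1 CCAAT. By contrast, GC made up 62.4% of the Cnot3 stretch, 70.8% of that of Cnot6 and 82.4% of that of Cnot6l, beside a median of 52.4% over 32851 mouse promoters of the same length. Cnot3 carried 4 copies of CCAAT and 1 of GGGCGG, Cnot6 carried 1 of each, and Cnot6l held 4 matches to GGGCGG, of which the last pair overlap. Of all the promoters, 33.8% hold CCAAT and 32.7% hold GGGCGG. By comparison, the core of a TATA box, TATAAA, is in 12.4% of all promoters and in 0 of the 12 listed for the 6 members that matched the table.

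The 35 libraries held between 8705584 and 17797581 counted fragments. Kdm5b itself took at most 0.0189% of the counts in water-injected samples and between 2.30 and 15.8% in injected ones, in accord with each label, and it was removed before normalisation. Oocyte genes were abundant throughout, with 12 markers summing to 8438 to 18417 TPM (counts scaled by exon length and then to the same sum in each library). From zygotes to 2C samples 8 of the 12 fell and 1 rose in controls, and 7 fell and 2 rose in injected embryos, while 7 of 7 markers of the 2-cell stage rose in controls and 6 of 7 in injected embryos. Of 13 cumulus cell markers only 2 passed the filter. The summed level of all 13, from 12.7 to 51.0 TPM, was mostly Cyp19a1 and overlapped between all groups. The number of embryonic cells in each library is known from its label. For cumulus cells, whose number is not known, fewer cells and less RNA per cell cannot be told apart. The index numbers of the libraries fall into strips of 8 consecutive numbers, which were inferred here and are not described as batches by the study. Zygotes of both groups share strips 8, 9 and 10. In contrast, strip 11 holds 3 control and 5 Kdm5b 2C samples, and strip 12 holds 6 control samples, including the 3 control pools, and 1 intact Kdm5b 2C sample.

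Btg4 stood far above every other gene of the group. In control zygotes its median of 5543 TPM ranked 5th of 15332 detected genes and was 5.39-fold that of Cnot3, the next in order. Btg4 alone took between 0.232 and 0.258% of all fragments in control zygotes. From Btg4 to the lowest member, levels per length spanned more than 2 orders of magnitude. After Btg4 the order was Cnot3 (median 1029 TPM), Cnot7 (710.4), Cnot8 (381), Cnot6l (293), Cnot2 (143), Cnot1 (98.9), Cnot6 (23.9) and Zfp36l2 (20.4). The sample ranges of neighbours in this order did not overlap, except for Cnot6 and Zfp36l2, where Cnot6 was the higher in 8 of 10 control zygotes. Kdm5b zygotes had the same order, and there Cnot6 was the higher in 6 of 10. In 2C samples Cnot7 and Cnot3 changed places, with Cnot7 above Cnot3 in 9 of 9 control samples. The ranges of Cnot3 and Cnot8 overlapped at that stage in both groups, as did those of Cnot8 and Cnot6l.

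**Figure D1:**
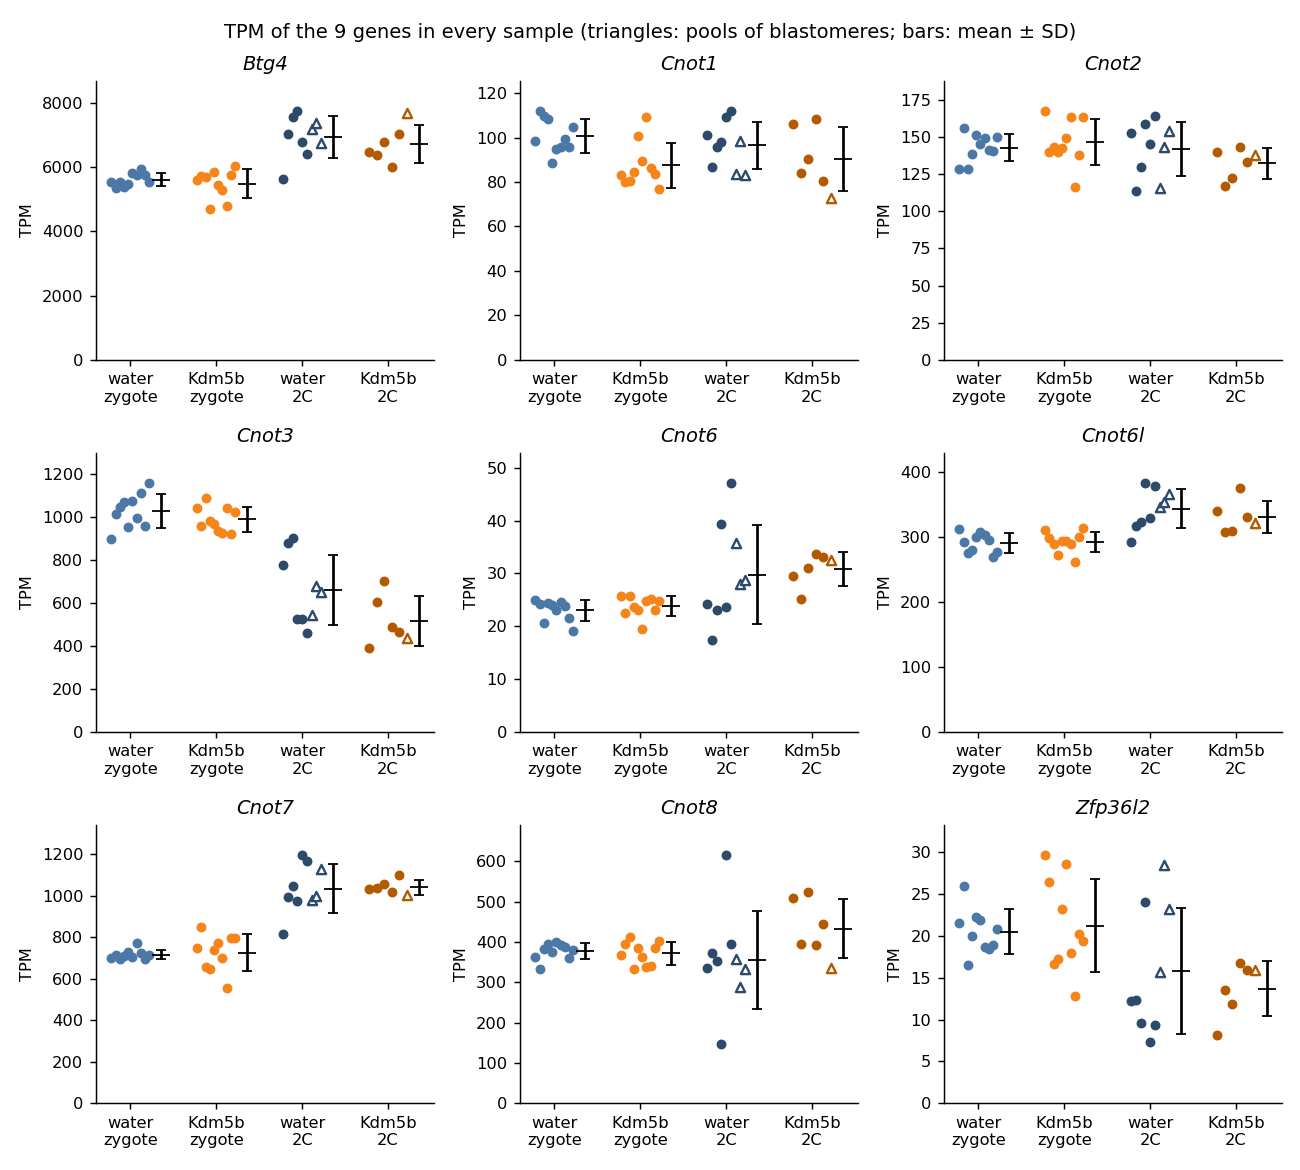
TPM of the 9 genes (y axis, linear from 0, a scale for each gene) in every sample of the 4 groups (x axis); points are libraries, triangles are pools of blastomeres, and bars give mean ± SD. All 9 control 2C samples lie above the highest control zygote for Cnot7, and 8 of 9 lie below the lowest for Cnot3.

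The comparison of control 2C samples with control zygotes asked how the transcripts of the complex stand across the first division. Levels are scaled within each library, so rises and falls here and below are relative, and transcript amount per embryo was not measured. Percent changes are those of the edgeR fits on normalised counts, not of the TPM medians printed beside them. By TPM medians every rise called below was smaller and the fall of Cnot3 was larger, whereas the fall of Zfp36l2 in Kdm5b embryos was smaller. How far scaling and how far the use of medians account for this was not tested. Btg4, Cnot6, Cnot6l and Cnot7 rose, Cnot3 fell, and Cnot1, Cnot2, Cnot8 and Zfp36l2 did not pass the test (edgeR quasi-likelihood, Benjamini-Hochberg adjusted p under 0.05 over all 11968 genes tested). This is 4 of 9 higher and 1 of 9 lower, beside 26.8% of all tested genes higher and 25.4% lower, so that the share of members called was close to that of the transcriptome. No member passed a log2 fold change of 1, which 9.2% of all genes did upward and 13% downward. In Kdm5b-injected embryos the same comparison called 5 members higher and 2 lower, adding Cnot8 and Zfp36l2, against 29.3% and 29.5% of 12390 genes, and again 0 members were past a log2 fold change of 1, beside 10.5% and 16% of all genes. The members' median log2 fold change was 0.08 in controls, beside 0.02 over all genes, and 0.28 in injected embryos, beside 0.01.

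Btg4, the adaptor, is a short gene on the plus strand of chromosome 9 (GRCm38, 51116001 to 51119700, 5 exons, 1311 bases of exon). Its level ran from 5345 to 5952 TPM in control zygotes (median 5543) and from 5630.1 to 7749.85 TPM in control 2C samples (median 7016). The highest control zygote was exceeded in 8 of 9 control 2C samples. The rise was 31.6% (log2 fold change 0.40, SE 0.0646, adjusted p = 1.21e-05). In Kdm5b embryos it ran from 4711 to 6039 TPM in zygotes and from 5989.8 to 7695 TPM in 2C samples, and the log2 fold change was again 0.40 (SE 0.0786, adjusted p = 0.000117). Btg4 thus remained among the most abundant transcripts of the 2C embryo, at the 10th place in control samples, and had a level 7.03-fold that of Cnot7, the next of the group.

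Among the Caf1 nucleases, Cnot7 (minus strand of chromosome 8, 40492538 to 40515847, 8 exons) showed the clearest separation of the stages. Control zygotes had 697 to 773 TPM (median 710.4) and control 2C samples 817 to 1199 TPM (median 998), with no overlap. Cnot7 rose by 53.5% (log2 fold change 0.62, SE 0.0688, adjusted p = 4.25e-08). In Kdm5b embryos the ranges were 555 to 849 TPM in zygotes and 1001 to 1099 TPM in 2C samples, again without overlap, and the rise was 53.6% (log2 fold change 0.62, SE 0.0832, adjusted p = 7.41e-07). Its coefficient of variation over the 6 Kdm5b 2C samples was 3.31%.

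Cnot8, the paralog of Cnot7 (plus strand of chromosome 11, 58104153 to 58118594, 7 exons), behaved differently in the water-injected embryos. Its level was 334 to 399 TPM in control zygotes (median 381) and 149 to 617 TPM in control 2C samples (median 354). Both the lowest and the highest of all 35 values thus belonged to single control 2C embryos, replicates 4 and 5. The log2 fold change was -0.00, with a 95% interval from -0.30 to 0.29 (adjusted p = 0.987). In Kdm5b embryos, zygotes had 333 to 414 TPM (median 376) and 2C samples 337 to 525 TPM (median 420). Cnot8 rose by 24.2% in the edgeR fit (log2 fold change 0.31, SE 0.0818, adjusted p = 0.00207), whereas the ratio of the TPM medians was only 1.116. The difference between these stage effects was 0.33 on the log2 scale and did not pass the test of the interaction (adjusted p = 0.584), and the call in Kdm5b embryos is lost when all 35 samples share 1 estimate of the spread (adjusted p = 0.0547). Of the 91-base windows in Cnot8 transcripts, 5.92% are also found in the pseudogene Gm18860, so that reads from them may match more than 1 place and go uncounted.

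The share of Cnot7 in the sum of Cnot7 and Cnot8 levels puts the Caf1 pair on 1 scale. It averaged 65.5% ± 1.21 (SD, n = 10) in control zygotes and 74.9% ± 5.68 (SD, n = 9) in control 2C samples, in 8 of which it was above the highest zygote. The difference of 9.37 percentage points passed a 2-sided exact permutation test (p = 6.50e-05, adjusted p = 0.00052 over 8 tests of shares). In Kdm5b embryos the share was 65.98% ± 2.41 (SD, n = 10) in zygotes and 70.7% ± 3.22 (SD, n = 6) in 2C samples, higher by 4.75 points (exact permutation adjusted p = 0.0290). The latter call is lost with the 5 intact Kdm5b 2C embryos alone (difference 3.93 points, adjusted p = 0.0773), or without replicate 2, 4, 5 or 6 of these samples (adjusted p = 0.0515 to 0.0773).

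Cnot6l, a nuclease of the Ccr4 type with a known part in mRNA clearance in oocytes, lies on the minus strand of chromosome 5 (96070333 to 96161990, 14 exons). It had 269 to 311 TPM in control zygotes (median 293) and 292 to 383 TPM in control 2C samples (median 346). Of the 9 control 2C samples, 8 were above the highest control zygote, and the rise was 25.5% (log2 fold change 0.33, SE 0.0665, adjusted p = 0.000185). In Kdm5b embryos the ranges were 261 to 314 TPM (median 294) in zygotes and 307 to 375 TPM (median 326) in 2C samples. Cnot6l rose there by 21.7% in the edgeR fit (log2 fold change 0.28, SE 0.069, adjusted p = 0.0011), more than the TPM medians show. The 3 control 2C samples of strip 11 had 292 to 323 TPM and the 6 of strip 12 had 328 to 383 TPM. Against control zygotes, the log2 fold change was 0.13 in strip 11 alone, which did not pass the test (adjusted p = 0.144), and 0.37 in strip 12 alone (adjusted p = 1.33e-05).

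Cnot6 (minus strand of chromosome 11, 49671497 to 49712722, 12 exons) is the scarcer gene of the Ccr4 pair. In control zygotes it ran from 19.0 to 25.0 TPM (median 23.9), and in control 2C samples from 17.3 to 47.2 TPM (median 27.9), where 5 of 9 samples lay above all control zygotes and 1 below them. It rose by 37.3% (log2 fold change 0.46, SE 0.144, adjusted p = 0.00974). The call rests on strip 12, where levels were 23.7 to 47.2 TPM (log2 fold change 0.61, adjusted p = 0.000146). In strip 11 levels were 17.3 to 24.3 TPM, and the log2 fold change was -0.06 (adjusted p = 0.753). It is also lost with the 6 intact control embryos alone (log2 fold change 0.40, adjusted p = 0.0565). Kdm5b embryos had 19.4 to 25.8 TPM as zygotes and 25.2 to 33.7 TPM as 2C samples, 5 of 6 of them above every Kdm5b zygote, and Cnot6 rose by 39.9% (log2 fold change 0.48, SE 0.0972, adjusted p = 0.000145).

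Cnot6l made up 92.7% ± 0.433 (SD, n = 10) of the summed level of Cnot6l and Cnot6 in control zygotes and 92.1% ± 1.79 (SD, n = 9) in control 2C samples, a difference of -0.52 points that did not pass the exact permutation test (adjusted p = 0.492). The share in Kdm5b embryos was 92.4% ± 0.71 (SD, n = 10) in zygotes and 91.4% ± 0.696 (SD, n = 6) in 2C samples, lower by about 1 point (difference -1.003, exact permutation adjusted p = 0.0446). That call did not hold with intact embryos alone (adjusted p = 0.112), nor when any of 11 of the 16 samples was left out: replicates 1, 2, 5, 6, 7, 9 and 10 of the zygotes (differences from -1.04 to -0.86) and replicates 3 to 6 of the 2C samples (from -1.06 to -0.87).

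**Figure D2:**
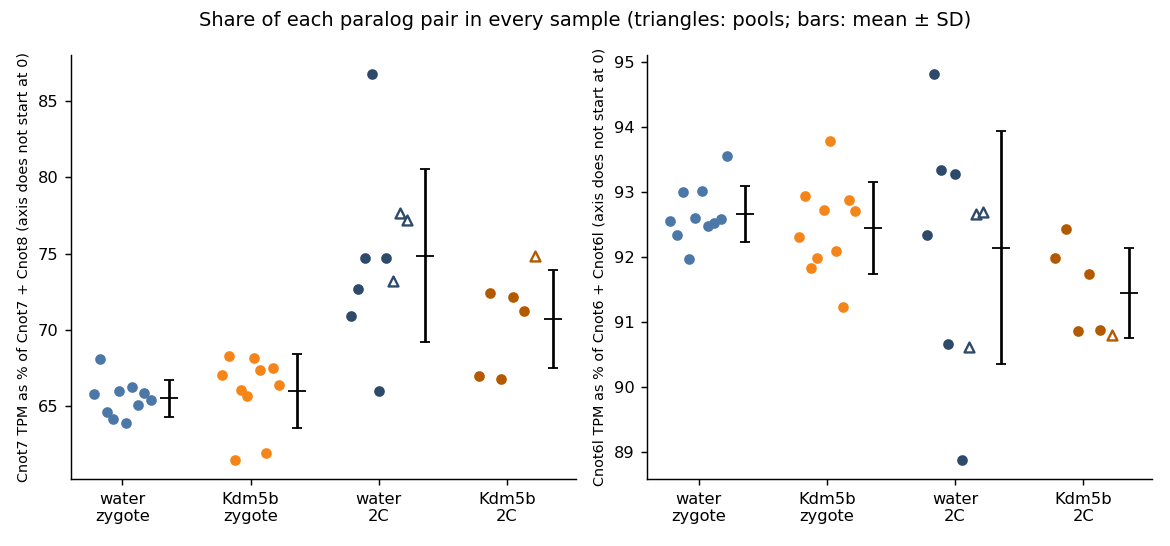
Share of Cnot7 in the summed TPM of Cnot7 and Cnot8 and share of Cnot6l in that of Cnot6l and Cnot6 (y axes, percent) by group (x axis); points are libraries, triangles are pools, and bars give mean ± SD. The Cnot7 share is higher in 2C samples than in zygotes in both treatments, with the widest spread in control 2C samples, from 66.01 to 86.8%.

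The scaffold and its module did not move together. Cnot1, the scaffold (minus strand of chromosome 8, 95719451 to 95807462, 49 exons), had 88.5 to 112 TPM in control zygotes (median 98.9) and 83.04 to 112 TPM in control 2C samples (median 98.1), and the groups overlapped. Its log2 fold change was 0.02 (95% interval -0.13 to 0.17) in controls and 0.14 (-0.04 to 0.33) in Kdm5b embryos, with adjusted p of 0.822 and 0.165. Cnot2 (minus strand of chromosome 10, 116485161 to 116581511, 17 exons) had medians of 143 and 146 TPM in control zygotes and 2C samples. Its log2 fold changes were 0.08 (-0.09 to 0.24) and -0.04 (-0.22 to 0.14), and neither passed the test (adjusted p = 0.445 and 0.718). Gm6158 shares 7.69% of the 91-base windows of Cnot1 transcripts.

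Cnot3, the partner of CNOT2 in that module (plus strand of chromosome 7, 3645269 to 3661109, 18 exons), was the member that fell in both treatments. Control zygotes had 898 to 1161 TPM (median 1029) and control 2C samples 458 to 902 TPM (median 653). In 8 of 9 control 2C samples the level was below that of every control zygote. Cnot3 fell by 31.9% in controls (log2 fold change -0.55, SE 0.111, adjusted p = 0.000152). In Kdm5b embryos, zygotes had 920.3 to 1088 TPM (median 976) and 2C samples 390.2 to 703 TPM (median 476), with no overlap, and the level fell by 44.1% (log2 fold change -0.84, SE 0.101, adjusted p = 1.31e-07). The interaction of stage and injection was -0.27 on the log2 scale (adjusted p = 0.629). The size of the fall differed between the strips: control 2C samples of strip 11 had 776 to 902 TPM and those of strip 12 had 458 to 679 TPM, with log2 fold changes of -0.24 (adjusted p = 0.0383) and -0.80 (adjusted p = 1.05e-07) against control zygotes. The pseudogene Gm9207 shares 11.9% of the 91-base windows of Cnot3 transcripts.

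Zfp36l2, the RNA-binding recruiter (minus strand of chromosome 17, 84183924 to 84187947, 2 exons), was the least abundant member, with 74 to 555 fragments per library. It had 16.5 to 26.0 TPM in control zygotes (median 20.4) and 7.38 to 28.4 TPM in control 2C samples (median 12.4), with 6 of 9 below and 1 above the range of the zygotes. The log2 fold change of -0.27 did not pass the test (95% interval -0.72 to 0.17, adjusted p = 0.308). Levels were 15.6 to 28.4 TPM in the 3 pools and 7.38 to 24.0 TPM in the 6 intact embryos. With intact embryos alone the log2 fold change was -0.64 and passed the test (adjusted p = 0.0178), as it did with strip 11 alone (-0.81, adjusted p = 0.0017), whereas in strip 12, which holds the control pools, it was -0.10. In Kdm5b embryos, zygotes had 12.9 to 29.7 TPM and 2C samples 8.14 to 16.7 TPM, and Zfp36l2 fell by 30.2% (log2 fold change -0.52, SE 0.196, adjusted p = 0.0261). This call is lost without replicate 1 or 6 of the Kdm5b zygotes or replicate 1 or 3 of the Kdm5b 2C samples (log2 fold change -0.48 to -0.40, adjusted p = 0.0512 to 0.0682), and in the fit of all 35 samples (adjusted p = 0.0525).

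**Figure D3:**
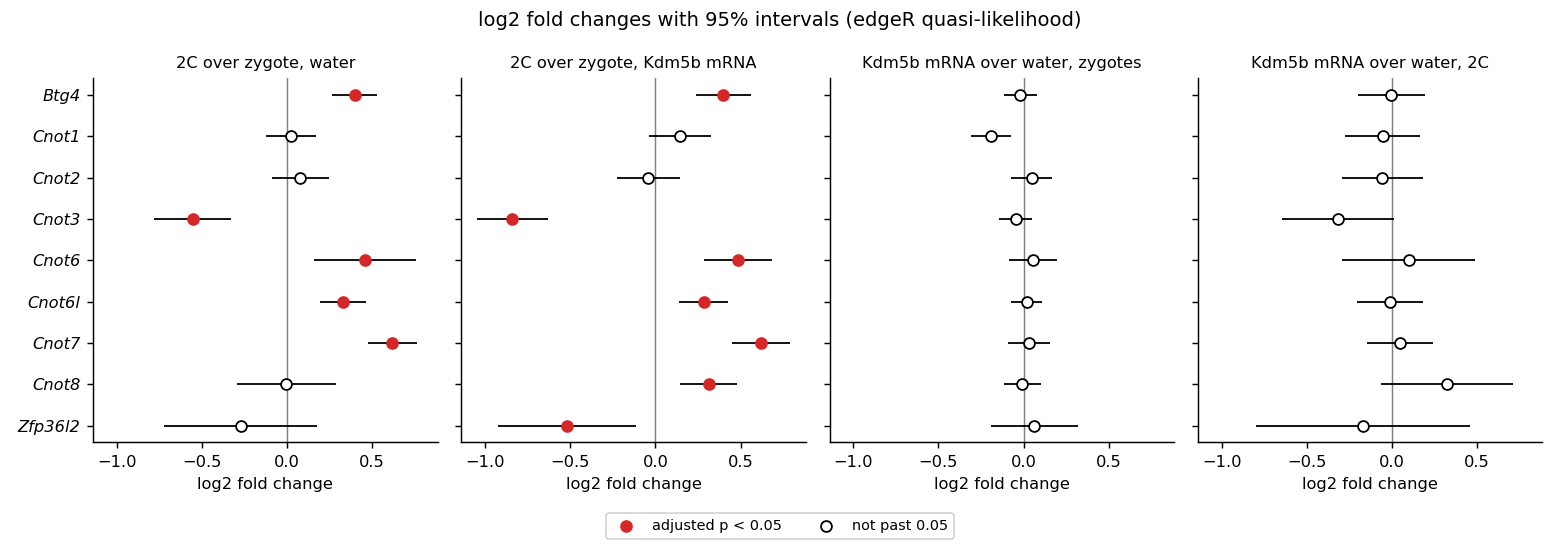
log2 fold changes of the 9 genes (x axis) with 95% intervals from the edgeR quasi-likelihood fits, for the stage comparisons and for Kdm5b-yfp against water; points are estimates over samples and lines are intervals. Stage effects run from -0.84 to 0.62, whereas those of the injection lie between -0.32 and 0.32.

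Stage effects were also fitted with intact embryos alone and, in controls, with the 2C samples of strip 11 or strip 12 alone. In controls, the calls of Cnot6, Cnot6l and Zfp36l2 differed between these fits, and the fall of Cnot3 differed in size. How far pools and how far strips account for this was not tested. The 3 control pools sit in strip 12, the Kdm5b pool sits in strip 11, and no strip holds both stages. Stage effects in controls and in injected embryos use different samples, but each shares its zygotes or 2C samples with the injection comparisons that follow.

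**Figure D4:**
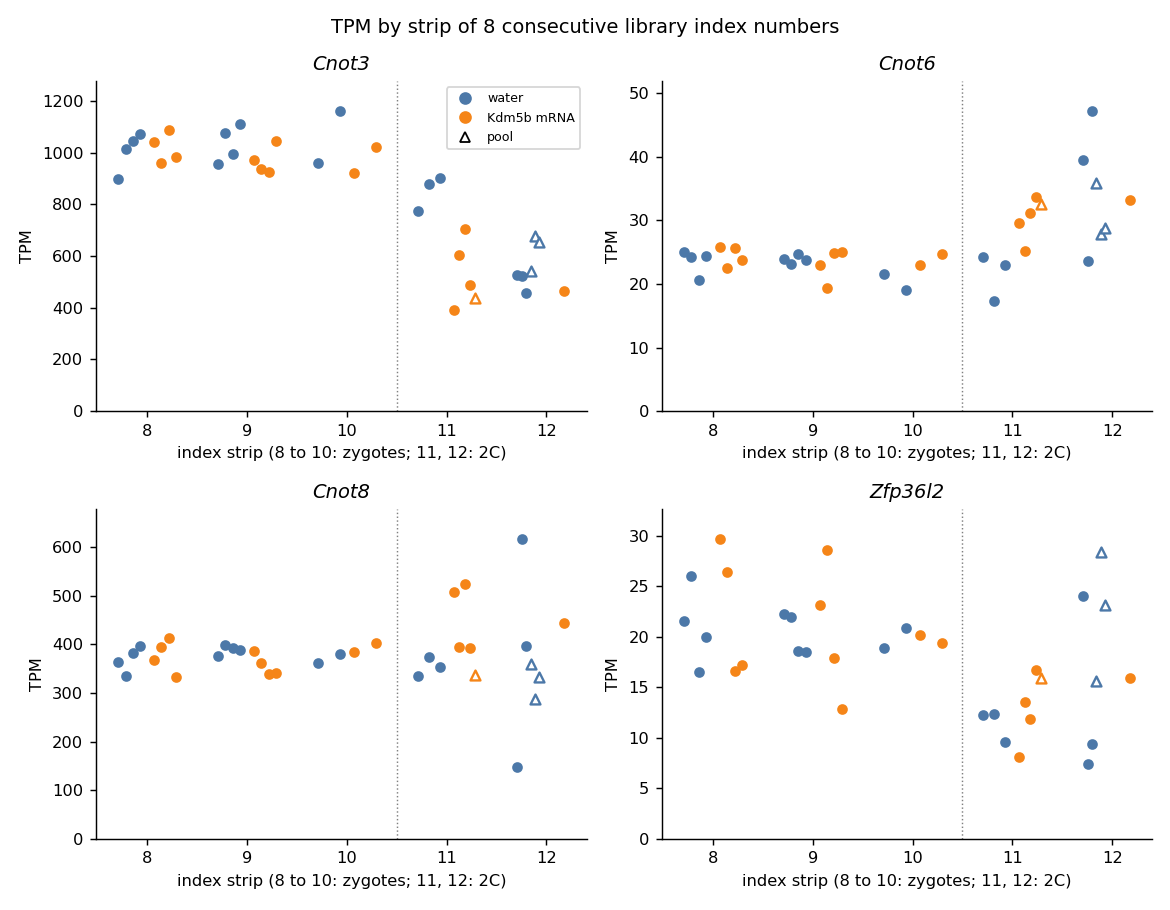
TPM of selected members (y axes, linear from 0) by strip of 8 consecutive library index numbers (x axis, strips 8 to 10 zygotes, strips 11 and 12 2C samples); points are libraries of the control and Kdm5b groups. The Cnot3 levels of control 2C samples are 776 to 902 TPM in strip 11 and 458 to 679 TPM in strip 12.

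Whether an early supply of KDM5B alters the transcripts of the complex was asked by setting injected embryos against water controls within each stage. In zygotes, 0 of 9 members passed the test, beside 16 of 11933 genes or 0.134% of all tested, with 1234 genes at an unadjusted p under 0.05. The 95% intervals of Btg4, Cnot2, Cnot3, Cnot6, Cnot6l, Cnot7 and Cnot8 all lay between -0.14 and 0.20 on the log2 scale. Zfp36l2 had a wider interval, from -0.19 to 0.32. Cnot1 had the lowest unadjusted p of the members (p = 0.00241), with a log2 fold change of -0.19 (95% interval -0.31 to -0.07) that did not pass the adjusted test (adjusted p = 0.204). Its level was 76.8 to 109 TPM in Kdm5b zygotes (median 84.1), against 88.5 to 112 TPM in control zygotes (median 98.9), with 7 of 10 below all controls. Within strips 8, 9 and 10 the log2 difference of Cnot1 was -0.37, 0.03 and -0.32.

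In 2C samples, 0 of 9 members passed, beside 3 of 12244 genes or 0.0245% of all tested, and 1152 genes had an unadjusted p under 0.05. Btg4 levels were alike in range, 5989.8 to 7695 TPM after Kdm5b-yfp and 5630.1 to 7749.85 TPM after water, and the interval of the log2 difference was -0.20 to 0.19. Cnot1, Cnot2, Cnot6l and Cnot7 had intervals between -0.29 and 0.24. Those of Cnot6 (-0.29 to 0.49), Cnot8 (-0.06 to 0.71) and Zfp36l2 (-0.80 to 0.46) leave room for larger differences at this number of samples. For the Cnot7 share the difference was -4.14 points in 2C samples (exact permutation adjusted p = 0.228) and 0.47 points in zygotes (permutation adjusted p = 0.586). Without control 2C replicate 5, the sample with the highest Cnot8 level, the former was -5.25 points (exact permutation adjusted p = 0.048). The corresponding differences of the Cnot6l share were -0.69 and -0.21 points (permutation adjusted p = 0.492 for both).

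Cnot3 had the lowest unadjusted p of the members in the 2C comparison (p = 0.0566). Its levels were 390.2 to 703 TPM after Kdm5b-yfp and 458 to 902 TPM after water, overlapping, with a log2 fold change of -0.32 (95% interval -0.64 to 0.01, adjusted p = 0.552). Within strip 11, where 5 Kdm5b and 3 control samples were set side by side, the ranges were 390.2 to 703 and 776 to 902 TPM and did not overlap. The log2 fold change there was -0.64 and did not pass the test (adjusted p = 0.110). That fit, chosen after seeing the data, called 111 of 12426 genes, 10 higher and 101 lower. The share of all genes whose ranges separate in these samples was not counted. With strip as a covariate it was -0.52 (adjusted p = 0.0719). For Cnot6, strip 11 held 25.2 to 33.7 TPM after Kdm5b-yfp and 17.3 to 24.3 TPM after water, without overlap either, with a log2 fold change of 0.56 (adjusted p = 0.287), against 0.10 over both strips. The 5 Kdm5b samples of strip 11 include the pool, at 438 TPM of Cnot3. Strip 12 has 1 Kdm5b sample, an intact embryo, and its Cnot3 level of 464 TPM lay within the range of the 6 control samples of that strip (458 to 679 TPM).

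The interaction of stage and injection, fitted on all 4 groups, called 0 of 9 members, beside 15 of 13778 genes or 0.109%. Its largest member estimates were those of Cnot8 and Cnot3 given above, and the others lay between -0.23 and 0.14 on the log2 scale.

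The spread between embryos was mostly at or under that of the typical gene. Taking genes that averaged 50 counts or more, the median coefficient of variation was 15.7% in control zygotes and 30.7% in control 2C samples. It was exceeded by 0 of 9 members in control zygotes and in Kdm5b 2C samples. The exceptions in the other groups were Zfp36l2 in Kdm5b zygotes (26.2%) and, in control 2C samples, Cnot6 (31.6%), Cnot8 (34.2%) and Zfp36l2 (47.8%). The medians cover genes of every level above the threshold and were not matched to the abundance of the members, most of which are abundant.

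The neighbourhood of the complex in mRNA decay was described with lists of 70 other genes, of which 66 passed the filter in both stage comparisons. In controls 21 were higher and 18 lower in 2C samples than in zygotes, beside 26.8% and 25.4% of all tested genes. In injected embryos 20 were higher and 26 lower, beside 29.3% and 29.5%. Past a log2 fold change of 1 there were 6 and 11 in controls, beside 9.2% and 13% of all genes. In injected embryos there were 6 and 13, beside 10.5% and 16%. Larger changes than those of the 9 members were thus found on both sides. The same shares of all genes apply to the counts of single lists given below. Among the other CCR4-NOT subunits and partners, 2 of 4 were lower in controls, led by Cnot10, which binds the scaffold's end opposite to the CNOT2 and CNOT3 module (log2 fold change -1.22). Of 5 other BTG and TOB genes, 2 rose, Btg1 (1.28) and Btg3 (1.37), and 1 fell. Btg1 and Btg3 were scarce, with medians of 2.87 and 3.87 TPM in control zygotes and 5.80 and 8.95 TPM in control 2C samples. Of 7 other deadenylases 4 rose and 0 fell in controls, whereas 4 rose and 3 fell in injected embryos. Pan3, the adaptor subunit of the PAN2-PAN3 deadenylase, rose in both (1.07 in controls, 1.18 in injected embryos). Angel1 was at 1.03 in injected embryos.

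Opposite directions were seen among poly(A)-binding proteins. Pabpc1, the general cytoplasmic poly(A)-binding protein, rose by 2.71 on the log2 scale in controls and by 2.39 in injected embryos. Its medians were 6.99 and 33.9 TPM in control zygotes and 2C samples, and Kdm5b 2C samples ran from 4.96 to 89.6 TPM. Pabpn1l, an oocyte poly(A)-binding protein and partner of BTG4, fell by 2.80 and 2.83. Terminal uridylation enzymes were likewise split, since Tut4 (Zcchc11 in the table) rose by 2.83 and 2.54 whereas Tut7 (Zcchc6) had a log2 fold change of -0.84 in controls and -1.01 in injected embryos. Tut4 was near the floor, with medians of 0.518 and 2.67 TPM in control zygotes and 2C samples. In Kdm5b embryos its medians were 0.453 and 0.888 TPM, and the 2C samples ran from 0.589 to 8.79 TPM. Of 11 mRNA-binding recruiters, 6 were higher and 2 lower in controls. For decapping and 5′ to 3′ decay the counts were 5 and 4 of 16, with Lsm1 at 1.01, Lsm3 at -1.04 and Edc4 at -1.30. The exosome and its SKI partners were mostly lower or not called, at 1 higher and 7 lower of 15 in controls, with Exosc3 at -1.29 and Exosc10 at -1.10. All genes named from these lists passed the adjusted test in the comparison whose value is given. In injected embryos Exosc9 (-1.81), Exosc10 (-1.35), Lsm3 (-1.13) and Patl2 (-1.67) were among the strongest falls. Between injected and control embryos, 0 of 66 of these genes passed the test in zygotes and 0 of 65 in 2C samples (edgeR, unadjusted p under 0.05 in 5 and 3). Of all tested genes, 0.134% passed in zygotes and 0.0245% in 2C samples.

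**Figure D5:**
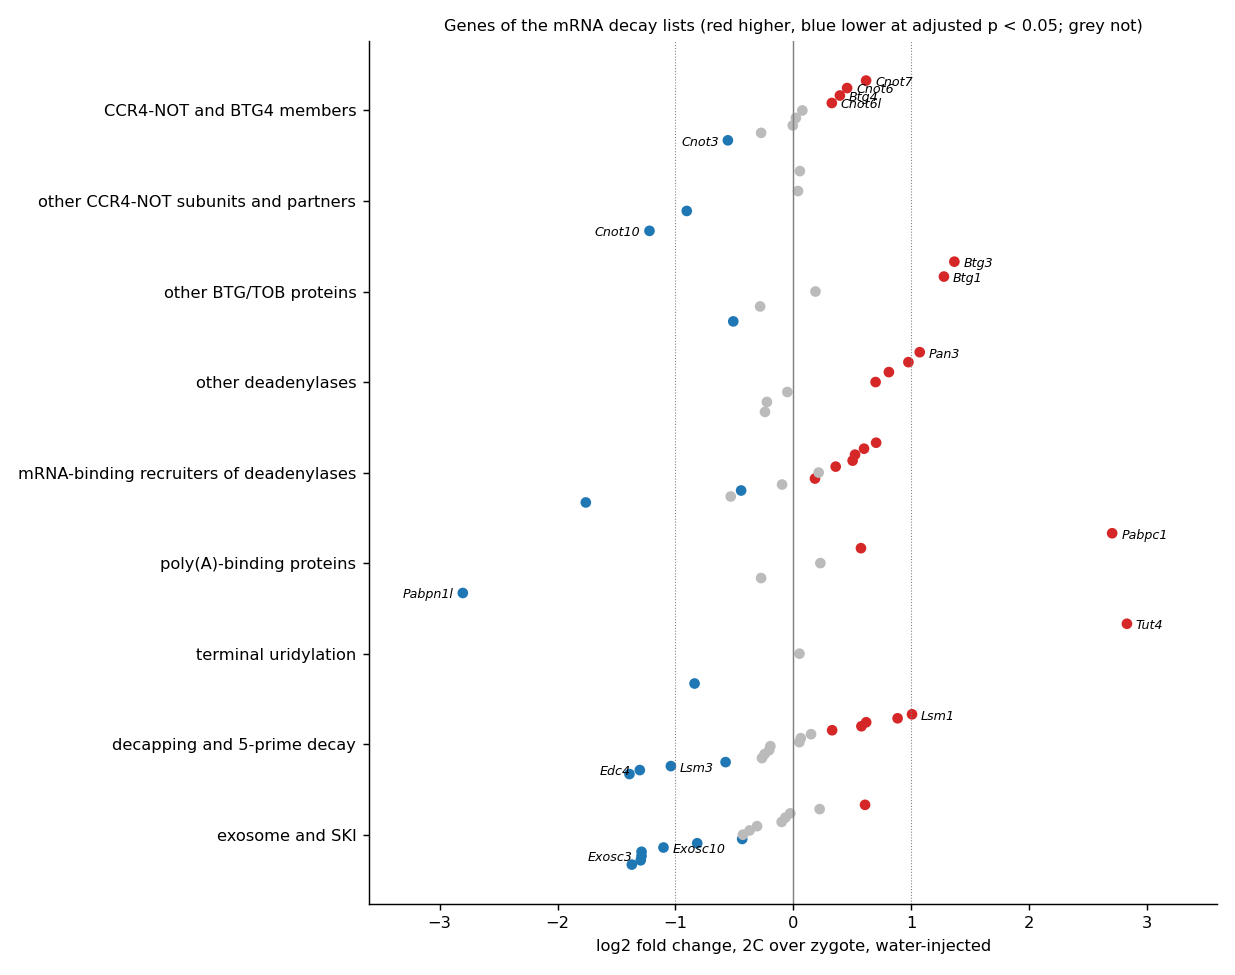
log2 fold changes of the genes of the mRNA decay lists (x axis), control 2C samples over control zygotes, by list (y axis); each point is a gene, red if higher and blue if lower at an adjusted p under 0.05, and grey otherwise. The widest spread is among poly(A)-binding proteins and terminal uridylation enzymes, from -2.80 for Pabpn1l to 2.83 for Tut4. Tut4 had a median of only 0.518 TPM in control zygotes.

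The genes most like each member over the 35 samples were ranked by Pearson's r of log2 CPM (counts scaled to library size), which is given as a description because the points share stage, library day and depth. For Cnot3 the highest r was 0.962 (Hexim2), for Cnot7 0.960 (Esco1), for Cnot6l 0.921 (Ankrd44) and for Btg4 0.906 (Sebox, an oocyte homeobox gene). Cnot8 was followed by Capn7 (0.883) and Cnot6 by 1810013L24Rik (0.850). Lower values were reached for Zfp36l2 (Nanos2, 0.733), Cnot2 (Rps20, 0.629) and Cnot1 (Gtf3a, 0.626), which are the members whose stage effects in controls did not pass the test, along with Cnot8. Because r was taken over both stages, the low values and the missing stage calls are not separate observations.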

How the data were processed

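Single mouse embryos were sequenced by the authors with a stranded total RNA kit (paired reads). They trimmed reads with fastp 0.21.0, aligned them to GRCm38 with STAR 2.7.3a and counted fragments per RefSeq gene on the sense strand with featureCounts 1.5.1. The deposited gene counts are raw whole numbers, of which 0 columns lacked a sample. The repeat table was not used.

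The Kdm5b row was removed. Counts of 24480 genes were fitted with edgeR 4.0.16 (R 4.3.3) by quasi-likelihood, with TMM scaling and filterByExpr (minimum count 10), each comparison on its own groups, and adjusted by Benjamini-Hochberg over all tested genes. TPM was computed from the counts and the table's exon lengths. Shares of paralogs were compared by exact permutation (100000 resamples for 10 against 10). Scripts were tested on simulated data. DESeq2 1.42.0 and limma 3.58.1 served as alternatives. Replicates are separate embryos or pools, and p-values measure their spread. Spread between females or collections cannot be told apart within it, because no embryo is traced to either. Libraries held 8705584 to 17797581 fragments, and Zfp36l2 had the fewest fragments of the members and the widest intervals. How far depth accounts for those intervals was not tested.

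The members and all gene lists were chosen with earlier results of these data known, so no list is independent evidence. Named are the 9 members, up to 6 decay genes a direction and stage comparison past a log2 fold change of 1 with the smallest p, and the 3 genes most like each member, of which the first is printed. Promoters came from RefSeq (GRCm38.p6).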

Additional observations from a re-analysis of the deposited data

Results flagged for a closer look

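Within groups of 6 to 10 samples, the lowest or highest member level or paralog share was set against its nearest neighbour by Dixon's criterion. This criterion flags about 1 group in 20 by chance. Of the 44 groups tested, 2 held such a sample, and 2.2 would be flagged by chance. Kdm5b zygote replicate 6 had a Cnot6 level of 19.4 TPM, with the next sample at 22.6 TPM. Control zygote replicate 7 had a Cnot7 level of 773 TPM, with the next sample at 729 TPM. Neither library decides a call of that gene: without it, Cnot6 and Cnot7 kept their direction and their side of the threshold in the stage and injection comparisons that used it.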

How the results depend on the processing

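Of the values recomputed under other settings, 1333 kept their direction and side of the threshold, 60 changed sign, 28 no longer passed, 3 newly passed and 13 counts moved. The stage effects of Btg4, Cnot3 and Cnot7 kept their calls under every setting run, apart from the demand of a log2 fold change over 1. Of the values that changed sign, only that of Cnot6 for stage in controls, in strip 11, had passed the test, and the cause of none of the changes was tested. For stage in controls, the log2 fold change of Cnot8 was 0.032 with DESeq2 size factors in edgeR, 0.031 with the DESeq2 Wald test, 0.030 with a mean of at least 50 counts and 0.025 with intact embryos. That of Cnot1 was -0.070 with no filter, -0.0073 in the fit of all 35 samples and -0.055 in strip 11 alone, and that of Cnot2 was -0.016 with no filter and -0.080 in strip 11. There Cnot6 was at -0.062. Strip 11 alone gave 2 members higher and 2 lower, intact embryos gave 2 lower, and a log2 fold change over 1 as well left 0 in each direction. For stage in injected embryos, Cnot2 was at 0.012 with DESeq2 size factors, 0.0092 with the Wald test and 0.0011 with the mean of 50 counts. Members lower were 1 with limma voom and 1 in the fit of all samples, and 0 were past a log2 fold change of 1 in either direction. The Cnot7 share differed by 5.33 mean ranks (adjusted p = 0.0833) and by 3.93 points with intact embryos, and the Cnot6l share by -5.87 mean ranks (adjusted p = 0.0639) and by -0.87 points, all no longer passing the exact permutation test. In the comparison of injection, Cnot8 in zygotes was at 0.0012 with limma voom. In 2C samples, intact embryos gave 0.024 for Cnot6l and 0.13 for Zfp36l2, strip as a covariate gave 0.040 for Btg4, 0.015 for Cnot2, 0.079 for Cnot6l and 0.16 for Zfp36l2, and strip 11 alone gave 0.047 for Btg4, 0.022 for Cnot1, 0.068 for Cnot2, 0.15 for Cnot6l and 0.29 for Zfp36l2. With intact embryos the interaction was -0.030 for Btg4 and 0.042 for Zfp36l2. The strip settings other than the covariate were chosen after seeing the data.

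With 1 sample left out at a time, the Cnot7 share in injected embryos differed between the stages by 3.93 to 5.54 points and the Cnot6l share by -1.20 to -0.86, and the Cnot7 share between treatments in 2C samples by -5.25 to -2.65. Members lower in injected embryos were 1 or 2. The log2 fold changes that changed sign ran from -0.0029 to 0.040 (Cnot1) and -0.13 to 0.095 (Cnot8) for stage in controls, from -0.046 to 0.0056 (Btg4), -0.0046 to 0.032 (Cnot6l) and -0.031 to 0.013 (Cnot8) for injection in zygotes, and from -0.079 to 0.022 (Btg4) and -0.066 to 0.011 (Cnot6l) for injection in 2C samples.

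Replicate numbers are shared between groups but name no common animal or day, and deviations of same-numbered samples correlated at -0.24 to 0.098, with 0 pairs over 0.1. A replicate block left the calls of the members as they were (4 higher and 1 lower in controls, 5 and 2 in injected embryos). For injection in 2C samples it gave log2 fold changes of 0.042 for Btg4, 0.044 for Cnot6l and 0.26 for Zfp36l2, and 17 genes called.

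Counts over all genes depend on the tool. For injection, the 16 genes called in zygotes became 100 with DESeq2 and 0 in the fit of all samples. The 3 in 2C samples became 99 with DESeq2, 8 with limma voom, 9 with no filter or with the mean of 50 counts, 528 in the fit of all samples, 0 with intact embryos, 253 with strip as a covariate and 111 in strip 11 alone. The 15 of the interaction became 88 with DESeq2 and 36 with intact embryos. Over the larger set of genes that DESeq2 tests, the median log2 fold change was higher by 0.10 in controls and 0.15 in injected embryos. Zfp36l2 had the fewest fragments, and how far depth limits its precision was not tested. Comparisons of injection in 2C samples rest on only 6 Kdm5b samples.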
